A study of Mus musculus with 8 samples.

Results

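Cytokines, chemokines and their receptors were measured by 68 spots of 55 genes, out of 20794 spots and 8653 named genes, on 2-colour cDNA arrays of mouse brain RNA. Members were taken by gene symbol from the platform annotation: Tnf and every symbol that begins with Il, Ccr or Csf and a digit, or with Ccl, Cxcl, Cxcr, Tnfsf, Tnfrsf, Ifna, Ifnb, Ifng, Ifngr or Ifnar. They comprised 26 ligand genes (32 spots), 27 receptor genes (32 spots) and 2 secreted proteins that are neither (4 spots). The latter are Il18bp, a binding protein that keeps the cytokine Il18 from its receptor, and Il4i1, an amino acid oxidase of immune cells. The annotation lists 99 spots of 84 such genes. The other 31 spots lie where the naming of spots was not settled and were not analysed here, which left out 29 genes entirely. No interferon ligand was among the 55 genes.

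Cytokines are small secreted or membrane-held proteins by which immune, glial and endothelial cells signal to each other. Chemokines steer cell migration through G protein-coupled receptors. Interleukins, interferons and colony-stimulating factors mostly act through receptors that activate Jak kinases and Stat factors, and receptors of the tumour necrosis factor family recruit Traf adaptors and activate NF-kB. Most of these genes are weakly expressed in healthy brain, where microglia are a main source, while Cxcl12, Cxcl14 and Il34 are also made by neurons.

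Brain RNA of 4 male mutant mice aged 19 weeks was compared with pooled wildtype brain RNA, from males of the same age. The mutant genotype is given as ADAR-/-/GluR-BR/R. These mice lack the RNA-editing deaminase ADAR2 and carry, on both chromosomes, GluR-B (Gria2) alleles that encode the edited arginine form of this AMPA receptor subunit, the change that rescues mice without ADAR2. The pool carries neither change, so loss of ADAR2 and the Gria2 alleles cannot be told apart here. The design counts 4 wildtype mice in the pool, but a different number is given in the protocol for labelling. Each mutant was hybridised on 2 arrays, once labelled with Cy5 and once with Cy3, and mice were counted as replicates (n = 4). The pool is 1 control sample, so the tests leave out the spread between wildtype mice. In RNA from a whole tissue, fewer cells of a type and less RNA per cell cannot be told apart.

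Which channel stands in the numerator of the log2 ratios is not in the labels, so no direction of mutant against wildtype is stated. Each spot is given by its log2 ratio on every array after subtraction of that array's median, called its array value below. Array values were combined in 2 ways. The mean ratio averages both arrays of a mouse, or takes 1 array where the other has no value. It compares mutant and pool where the deposited ratios were all turned to 1 genotype. The swap component is the array value with the mutant in Cy5 minus that with the mutant in Cy3, divided by 2, and it measures mutant over pool where every ratio is Cy5 over Cy3. In that case a difference between mutant and pool cancels in the mean ratio of spots with both arrays in every mouse. Their calls then say nothing about the mutant. It does not cancel in a mouse with a value on 1 array only, as in called spots of Ccr6, Tnfrsf4 and Tnfrsf13c. Where all ratios were turned to 1 genotype, such a difference cancels in the swap component instead. Both quantities were tested against 0 with limma, with Benjamini-Hochberg adjustment over all spots and a threshold of 0.05. Errors are moderated standard errors over 4 mice.

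The 8 arrays gave 20211 to 20559 usable values each. Over all spots every pair of arrays correlated positively. Pearson's r ran from 0.43 to 0.68 between arrays with the mutant in Cy3, from 0.22 to 0.40 between arrays with the mutant in Cy5, from 0.31 to 0.41 between the exchanged arrays of 1 mouse and from 0.15 to 0.39 between exchanged arrays of different mice. Spots are not independent replicates, and arrays share the pool RNA. Intensities were not used here, so a weak spot was recognised only where its ratio equalled that of 2 small whole numbers. Such values made up 36 of 534 member values (6.74%), against 6.23% over all spots. Some values can match by chance, and ratios larger than 10 to 1 could not match. Ratios carry no level, so whether a cytokine or a cell type was present at all could not be read from them.

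In the mean ratio, 18 of the 67 member spots tested passed the threshold (26.9%), 4 above 0 and 14 below 0. Over all 20595 spots tested, 30.4% passed, 17.0% above 0 and 13.3% below 0. The members' share of calls was thus close to that of the arrays as a whole and is no result about cytokine genes. An unadjusted p under 0.05 was reached by 30 of the 67 member spots and by 9228 of all 20595 spots. The median mean ratio was -0.31 over the members and -0.09 over all spots tested, and 56.1% of all calls were above 0. With the values as deposited, which carry an unknown constant per array, 22 of 67 member spots passed, 3 above 0 and 19 below. The deposited values gave 29.6% calls over all spots, 11.1% above 0 and 18.5% below, with medians of -0.47 over the members and -0.25 over all spots. The number of member spots called fell to 10 without mouse 1, 4 without mouse 2, 4 without mouse 3 and 9 without mouse 4. The share over all spots fell to 19%, 12.3%, 12% and 15.6% in the same order. When runs of 48 neighbouring spots were centred on their own median, 21.4% of all spots passed. Of the 18 called member spots 10 passed, and those that did not were Ccr6, Ccr7, Il16, Il1rn, Il4i1 (spot 8416), Tnfrsf13c, Tnfrsf21 and Tnfrsf4.

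By side, 6 of 31 ligand spots passed (1 above 0 and 5 below, median -0.21), 10 of 32 receptor spots (3 above 0 and 7 below, median -0.30) and 2 of 4 spots of Il18bp and Il4i1. The counts for single families below stand beside the same 30.4% of all spots and were not tested against it. The highest mean ratios belonged to Il1rn, Il6st and Tnfrsf11a and the lowest to Tnfrsf13c, Il18r1 and Ccr6. The array values of all 18 spots are shown in the plot of members past the threshold.

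**Figure D1:**
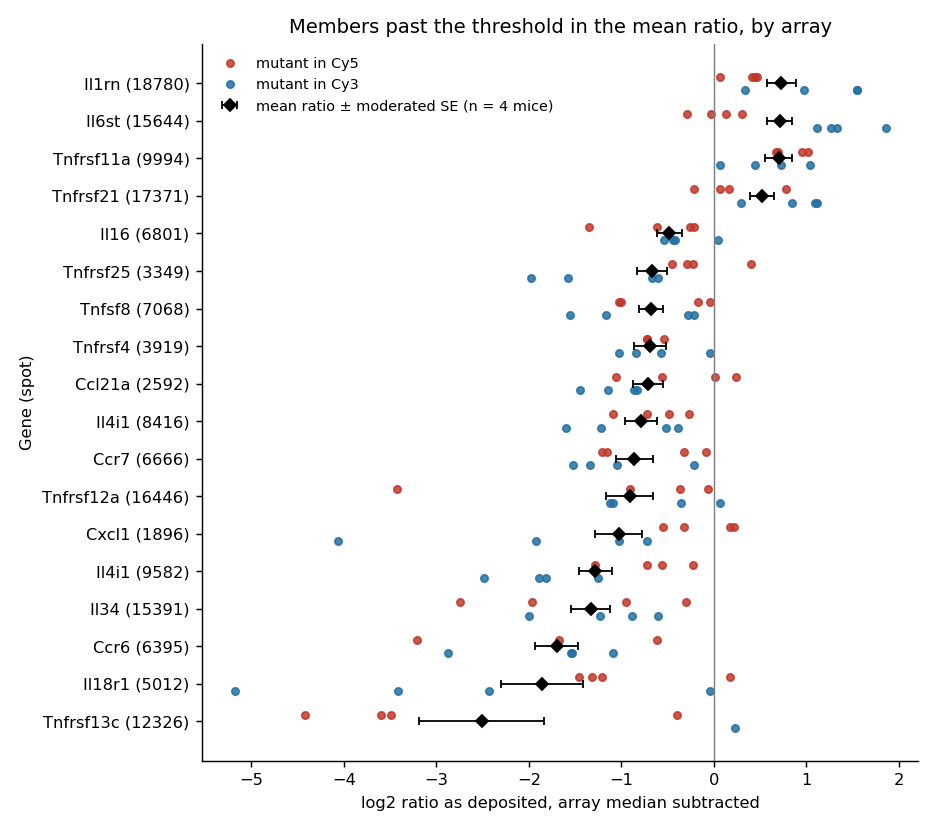
Array values (log2 ratio minus the array median, horizontal axis) of the 18 member spots past the threshold in the mean ratio, with 1 row per spot. Red points are arrays with the mutant in Cy5, blue points arrays with the mutant in Cy3, and black diamonds the mean ratio ± moderated SE (n = 4 mice). Il6st sits near 0 in red and between 1.12 and 1.86 in blue, and all 8 points of Il34 lie below 0.

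The medians of the members differed between the dye orientations. With the mutant in Cy5 the member medians were 0.07, -0.12, -0.04 and -0.04 in mice 1 to 4, and with the mutant in Cy3 they were -0.57, -0.39, -0.24 and -0.14. The median member thus lay lower in the Cy3 orientation in each of the 4 mice, as the plot of members on each array shows. All spots also spread more widely in that orientation, with standard deviations of 1.04 to 1.32 against 0.812 to 0.852 in the Cy5 orientation. The part of this spread in the member medians was not tested. In the Cy3 orientation alone, 17 of 63 member spots passed the threshold, beside 34.3% of all spots. In the Cy5 orientation alone, limma called 0 of 65 member spots and 0.0% of all 19898 spots tested, although 16 members and 4748 spots in all had an unadjusted p under 0.05.

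**Figure D2:**
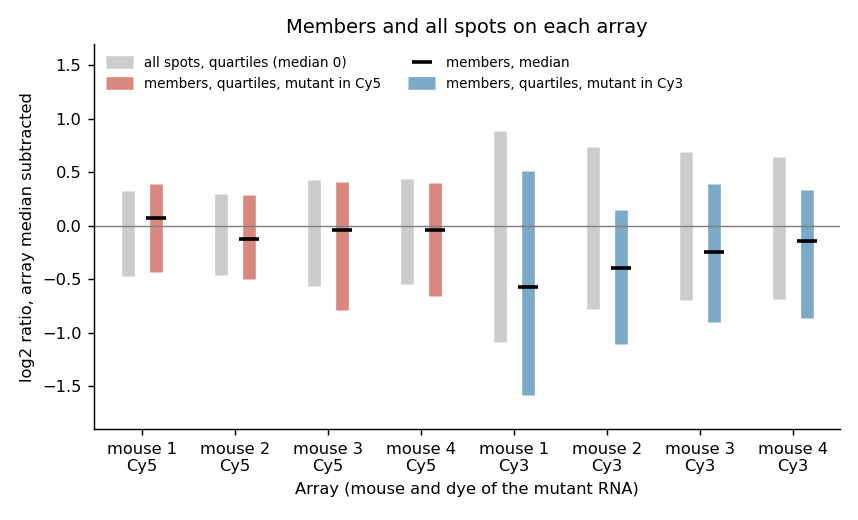
Quartile range of array values (log2 ratio minus the array median, vertical axis) on each of the 8 arrays, for all spots in grey and for the member spots in red (mutant in Cy5) or blue (mutant in Cy3). Black bars mark the member medians, which run from -0.12 to 0.07 in the Cy5 orientation and from -0.57 to -0.14 in the Cy3 orientation.

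Of the 61 member spots with all 8 values, the means of both orientations lay above 0 in 13 and below 0 in 25, and they had opposite signs in 23. Over all 18797 spots with 8 values, both means lay above 0 in 6339 and below 0 in 6839, with opposite signs in 5618. The mean of the Cy3 orientation was farther from 0 in 38 of 61, against 73.4% of all spots. The values of the 2 orientations did not overlap in 5 of 61 spots, against 22.3% of all spots. Array values had the same sign on all 8 arrays in 8 member spots, against 21.8% of all spots. Above 0 on every array were Il1rn (spot 18780), Tnfrsf11a (spot 9994) and Ifnar2 (spot 19234), and below 0 on every array were Ccr7, Il34, Tnfsf8 and Il4i1 (spots 8416 and 9582). With the sign of the Cy3 orientation turned, no member spot had the same sign on all 8 arrays.

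In the swap component 1 of 61 member spots passed the threshold, beside 7.84% of all spots. That spot was Il6st (spot 15644), at -0.68 ± 0.141 (adjusted p = 0.0442, limma). An unadjusted p under 0.05 was reached by 14 of the 61 member spots and by 5771 of all 18797 spots. The median swap component was 0.13 over the members and -0.03 over all spots. As deposited, limma called 0 of 61 member spots (17 at an unadjusted p under 0.05) and 0 of all 18797 spots (5785 at an unadjusted p under 0.05). With any 1 of the 4 mice left out it also called 0 spots on the whole array, members included, so these settings say nothing particular about Il6st.

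**Figure D3:**
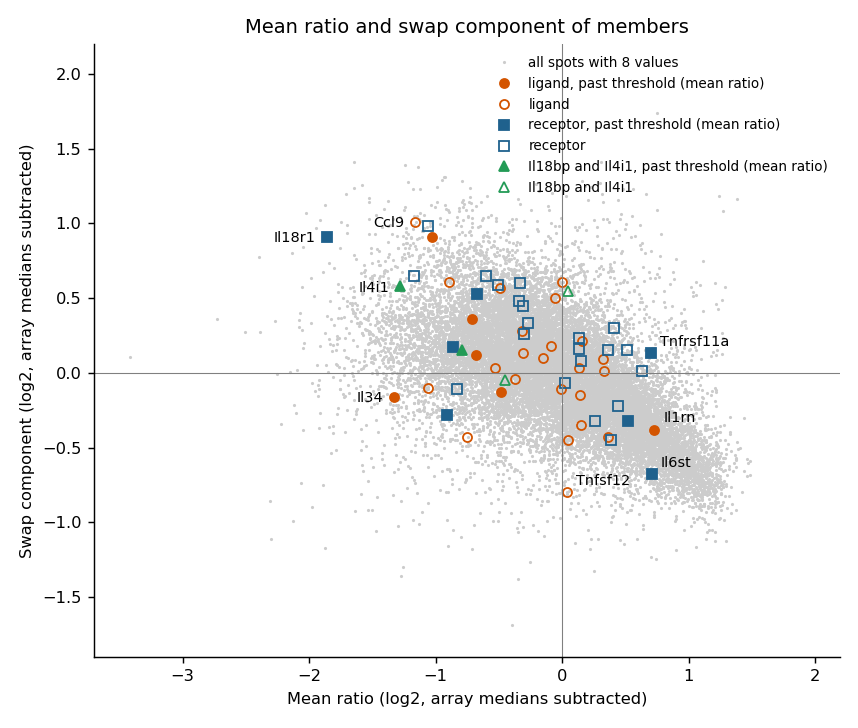
Mean ratio (log2, horizontal axis) against swap component (log2, vertical axis) of the 61 member spots with all 8 values, over all spots in grey. Circles are ligands, squares receptors and triangles Il18bp and Il4i1, and filled symbols passed the threshold in the mean ratio. Il6st lies lowest among the filled symbols, at 0.71 and -0.68, and Il18r1 farthest to the left, at -1.86 and 0.91.

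Among 18 spots of 15 chemokine ligand genes, Ccl21a and Cxcl1 passed the threshold in the mean ratio, both below 0, and the median was -0.05. Ccl21a, a ligand of Ccr7 that guides T cells and dendritic cells, gave array values of 0.24, 0.01, -1.06 and -0.56 in mice 1 to 4 with the mutant in Cy5. With the mutant in Cy3 it gave -1.45, -0.83, -1.14 and -0.86. All 4 values of the Cy3 orientation were low, while mice 1 and 2 lay at or above 0 in the Cy5 orientation. The mean ratio of Ccl21a was -0.71 ± 0.163 (adjusted p = 0.0264), and the call was lost without any 1 of the mice. The mouse genome holds near-identical copies of Ccl21, which a cDNA spot may not separate.

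Cxcl1, a neutrophil attractant, gave array values of 0.22, -0.32, -0.55 and 0.17 with the mutant in Cy5 and of -4.06, -0.72, -1.03 and -1.92 with the mutant in Cy3. The orientations did not overlap, and mouse 1 was far below the rest on its Cy3 array. The mean ratio of Cxcl1 was -1.03 ± 0.256 (adjusted p = 0.0329), and the call was lost without mouse 2, 3 or 4. The swap component was 0.91 ± 0.337 (adjusted p = 0.134).

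Cxcl1 is the called chemokine ligand whose promoter matches the NF-kB consensus, the element through which tumour necrosis factor receptors act on such genes. The 250 bases before its start, on the + strand of chr5:90890995-90891244 (RefSeq, GRCm38.p6), are shown with 2 overlapping matches, 1 on each strand, in capitals.
Cxcl1: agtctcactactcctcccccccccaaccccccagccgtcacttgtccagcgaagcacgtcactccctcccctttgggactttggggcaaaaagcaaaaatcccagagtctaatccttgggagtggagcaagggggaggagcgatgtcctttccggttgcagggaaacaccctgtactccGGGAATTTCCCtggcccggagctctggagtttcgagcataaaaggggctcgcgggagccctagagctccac

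The other chemokine ligands did not pass the threshold. Ccl9 had the lowest mean ratio among them, at -1.16 ± 0.486 (adjusted p = 0.123). On the Cy3 arrays alone Ccl9 passed (-2.16, adjusted p = 0.0192, limma). Its array values were 0.47, -2.24, 1.57 and -0.40 in the Cy5 orientation and -3.05, -3.33, -0.86 and -1.42 in the Cy3 orientation, so that each mouse read lower with the mutant in Cy3. Its swap component of 1.01 ± 0.235 was the highest among the members (adjusted p = 0.0548). Ccl25 followed in the mean ratio at -0.89 ± 0.341 and Ccl5, an attractant of T cells and monocytes, at -0.75 ± 0.244 (adjusted p = 0.0673), which passed with runs centred (-1.01, adjusted p = 0.0457). Ccl5 was below 0 in all 4 mice with the mutant in Cy5 (-0.55 to -1.80) and in mouse 1 with the mutant in Cy3. Ccl12, a monocyte attractant, read -0.53, Ccl22 -0.31, Ccl17 -0.15, Ccl8 -0.01, Ccl28 0.00, Ccl27a 0.15, Ccl1 0.16 and Ccl6 0.33 in the mean ratio. As deposited, Ccl1, Ccl27a and Ccl28 moved to 0 or below, at 0.00, -0.01 and -0.16.

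Cxcl12, which guides neuronal precursors and leukocytes, was measured by 3 spots and Cxcl14 by 2. The mean ratios of Cxcl12 were 0.13 ± 0.251 (spot 1467), 0.36 ± 0.209 (spot 4393) and -0.09 ± 0.151 (spot 18322), and those of Cxcl14 were 0.14 ± 0.248 (spot 6664) and 0.05 ± 0.321 (spot 18982). None of these 5 spots passed the threshold. In both spots of Cxcl14, mice 1 and 3 were positive on both arrays (0.09 to 1.56) and mice 2 and 4 negative on both (-0.13 to -1.22).

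All 3 chemokine receptors had mean ratios below 0, and Ccr6 and Ccr7 passed the threshold. Ccr6, the receptor for Ccl20 on lymphocytes and dendritic cells, had no usable value for mouse 1 with the mutant in Cy5 and gave -3.21, -1.67 and -0.62 in mice 2 to 4. With the mutant in Cy3 it gave -1.09, -1.53, -1.54 and -2.87 in mice 1 to 4. All 7 values were below 0 and the orientations overlapped. The mean ratio of Ccr6 was -1.70 ± 0.229 (adjusted p = 0.00938, mouse 1 from 1 array), the smallest adjusted p among the members. The call was kept without any 1 mouse and was lost when runs of 48 neighbouring spots were centred (-1.22, adjusted p = 0.0673). It could not be tested on the Cy5 arrays alone.

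Ccr6 is shown because it had the smallest adjusted p and holds 2 matches to TTCNNNGAA, the palindromic site that Stat factors bind. The 250 bases before the first start that RefSeq lists lie on the + strand of chr17:8235793-8236042 (GRCm38.p6), with the matches in capitals.
Ccr6: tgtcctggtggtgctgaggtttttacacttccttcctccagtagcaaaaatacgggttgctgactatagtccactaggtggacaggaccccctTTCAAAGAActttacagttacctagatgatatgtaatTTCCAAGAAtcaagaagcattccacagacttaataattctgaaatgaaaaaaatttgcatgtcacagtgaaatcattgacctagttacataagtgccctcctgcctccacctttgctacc

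Ccr7, the receptor for Ccl21a, gave array values of -0.32, -0.09, -1.21 and -1.16 with the mutant in Cy5 and of -0.21, -1.52, -1.34 and -1.05 with the mutant in Cy3. All 8 values lay below 0, and mouse 1 was near 0 in both orientations. The mean ratio was -0.86 ± 0.203 (adjusted p = 0.028), and the call was lost without mouse 2, 3 or 4 and with runs centred. Ccl21a and Ccr7 were thus below 0 together in the mean ratio, with swap components of 0.36 ± 0.165 and 0.17 ± 0.168 that did not pass. Cxcr5, the receptor for Cxcl13 on B cells, read -0.83 ± 0.295 in the mean ratio (adjusted p = 0.0839) and passed with runs centred (-1.05, adjusted p = 0.0497).

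Of 8 interleukin ligand spots tested, 3 passed the threshold. Il34, a ligand of the receptor Csf1r on which microglia depend, gave array values of -1.97, -0.30, -2.75 and -0.95 with the mutant in Cy5. With the mutant in Cy3 it gave -1.23, -2.00, -0.88 and -0.60. All 8 values lay below 0, and the orientations overlapped. The mean ratio was -1.33 ± 0.21 (adjusted p = 0.0109) and the swap component -0.16 ± 0.283. The Il34 call was kept without any 1 mouse (-1.17 to -1.52) and was lost on the Cy5 arrays alone (-1.49, adjusted p = 0.124).

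Il1rn encodes the receptor antagonist that blocks signalling by Il1a and Il1b. Its spot 18780 gave 0.47, 0.07, 0.44 and 0.41 with the mutant in Cy5 and 1.55, 1.55, 0.97 and 0.34 with the mutant in Cy3. All 8 values lay above 0, with a mean ratio of 0.73 ± 0.157 (adjusted p = 0.0224), and the call was lost without mouse 1, 2 or 3. Spot 5030 of Il1rn went the other way, at -0.93 ± 0.301 (adjusted p = 0.0659), and passed as deposited (-1.08, adjusted p = 0.031) and without mouse 1 (-1.29, adjusted p = 0.0307). Its array values were 1.99, -2.43, -1.58 and -2.10 in the Cy5 orientation and -1.68, 0.01 and -0.07 for mice 1, 2 and 4 in the Cy3 orientation. These values were discordant between the arrays of mouse 1, mouse 3 rested on 1 array, and 4 of the 7 matched ratios of small whole numbers. Il1b itself, a cytokine of activated microglia, had no value in mouse 1 and was not tested. In mice 2 to 4 it gave -1.15, 0.15 and -0.89 with the mutant in Cy5 and -0.83, -0.44 and 0.53 with the mutant in Cy3.

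Il16, which attracts T cells, was measured by 3 spots that did not share a sign. Spot 6801 passed at -0.48 ± 0.134 (adjusted p = 0.0462), and its call was lost without any 1 of the mice. Its array values were -0.22, -0.26, -0.61 and -1.35 in the Cy5 orientation and -0.44, -0.54, -0.42 and 0.04 in the Cy3 orientation. Spots 4356 and 5670 had mean ratios of 0.32 ± 0.141 and -0.06 ± 0.349 and did not pass. Il4, the cytokine of T helper responses, had a mean ratio of -0.37 ± 0.229 and Il24 one of -0.32 ± 0.322, neither past the threshold.

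Il4i1 was measured by 3 spots, and 2 of them passed below 0. Spot 9582 gave array values of -0.23, -0.72, -1.28 and -0.56 with the mutant in Cy5 and of -1.82, -2.48, -1.89 and -1.25 with the mutant in Cy3. All 8 were below 0, each mouse read lower in the Cy3 orientation, and the mean ratio was -1.28 ± 0.182 (adjusted p = 0.00965). The call was kept without any 1 mouse (-1.17 to -1.40). Its swap component was 0.58 ± 0.15 (adjusted p = 0.0649). Spot 8416 was also below 0 on all 8 arrays (-0.27 to -1.60), with a mean ratio of -0.79 ± 0.176 (adjusted p = 0.0243), and its call was lost without mouse 1, 3 or 4. Spot 6039 of Il4i1 differed from both, at 0.05 ± 0.297. Il18bp had a mean ratio of -0.45 ± 0.169 (adjusted p = 0.0966), which passed only with the values as deposited (-0.61, adjusted p = 0.0493).

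Among 9 interleukin receptor spots, Il6st and Il18r1 passed the threshold with opposite signs. Il6st encodes the signal-transducing subunit shared by the receptors of Il6, Lif and Cntf. Spot 15644 gave array values of 0.30, -0.29, 0.13 and -0.03 with the mutant in Cy5 and of 1.33, 1.86, 1.27 and 1.12 with the mutant in Cy3. The spot lay near 0 in the Cy5 orientation, was high in all 4 mice in the Cy3 orientation, and the orientations did not overlap. Its mean ratio was 0.71 ± 0.132 (adjusted p = 0.0152), and Il6st was the only member to pass in both quantities. The call in the mean ratio was lost without mouse 2 or 3. On the Cy5 arrays alone the mean was 0.03 (adjusted p = 0.933) and on the Cy3 arrays alone 1.39 (adjusted p = 0.00667). Passing in both quantities was not particular to Il6st. Cx3cl1, Tyk2 (spot 15500) and Traf4 (spot 2882), outside the members, did so with the same signs, and Tslp with the signs reversed. Over all spots, 1208 of 1473 calls in the swap component were below 0. The share of all spots that passed in both is not given here. Spot 2103 of Il6st read 0.13 ± 0.149, with array values of 0.14 to 0.57 in the Cy5 orientation and of -0.83 to 0.63 in the Cy3 orientation. Its swap component of 0.23 ± 0.173 had the opposite sign to that of spot 15644.

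The start of Il6st is printed because it was the member past the threshold in both quantities, and as a contrast in base composition. The window, on the + strand of chr13:112463820-112464069 (RefSeq, GRCm38.p6), holds none of the motifs searched and has an observed over expected CpG ratio of 0.96, against a median of 0.38 over all genes. The windows of Cxcl1 and Ccr6 shown above have ratios of 0.46 and 0.10.
Il6st: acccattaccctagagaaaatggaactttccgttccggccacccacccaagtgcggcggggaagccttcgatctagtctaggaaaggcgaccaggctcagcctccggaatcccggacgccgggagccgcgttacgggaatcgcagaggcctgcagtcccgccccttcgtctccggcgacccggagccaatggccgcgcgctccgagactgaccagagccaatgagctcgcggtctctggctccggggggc

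Il18r1, the ligand-binding chain of the Il18 receptor, gave array values of -1.46, -1.21, -1.32 and 0.17 with the mutant in Cy5 and of -3.42, -5.18, -0.04 and -2.43 with the mutant in Cy3. The spread between mice was wide, with mouse 4 above 0 in the Cy5 orientation and mouse 3 near 0 in the Cy3 orientation. The mean ratio was -1.86 ± 0.44 (adjusted p = 0.0283), and the call was lost without mouse 1, 2 or 4 (adjusted p of 0.0837, 0.0723 and 0.0587). Il17rd, an inhibitor of fibroblast growth factor signalling as well as an Il17 receptor relative, had a mean ratio of -1.17 ± 0.559 and did not pass. Mouse 2 alone gave -0.20 and -5.18 for Il17rd on its 2 arrays. The other interleukin receptors that did not pass were Il27ra at -0.60, Il17ra at -0.33, Il3ra at 0.02, Il2rb at 0.13 and Il17rc at 0.41. Il17ra had the largest moderated SE among the members (0.73), with mouse 1 at -1.67 and -4.65 and mouse 3 at 1.51 and 1.07. As deposited, the mean ratios of Il2rb and Il3ra lay below 0, at -0.03 and -0.14.

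Of 5 tumour necrosis factor ligands, Tnfsf8 passed. Tnfsf8, a ligand of T and B cells, gave array values of -1.03, -1.00, -0.17 and -0.04 with the mutant in Cy5 and of -0.28, -0.22, -1.17 and -1.55 with the mutant in Cy3. All 8 values lay below 0. Mice 1 and 2 were lower in the Cy5 orientation, and mice 3 and 4 in the Cy3 orientation. The mean ratio was -0.68 ± 0.127 (adjusted p = 0.0155), and the call was lost without mouse 2, 3 or 4. Tnf, the founding inflammatory cytokine of the family, had a mean ratio of -0.21 ± 0.191 with mouse 1 from 1 array. Its array values were 0.25, -0.13, 0.56 and -0.35 in the Cy5 orientation and -1.31, -1.04 and 0.06 for mice 2 to 4 in the Cy3 orientation. The Tnf receptors Tnfrsf1a and Tnfrsf1b read -0.27 ± 0.298 and 0.15 ± 0.138, so neither Tnf nor its receptors passed. Tnfsf13, a B cell survival factor, read -1.06 ± 0.424 and Tnfsf10, a ligand of death receptors, -0.49 ± 0.289, without passing.

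Of the ligand Tnfsf12 and its receptor Tnfrsf12a, the receptor passed and the ligand did not. Tnfsf12 had a mean ratio of 0.04 ± 0.373, with -1.22 and -2.68 for mice 2 and 3 against 0.36 and 0.50 for mice 1 and 4 in the Cy5 orientation and 0.34 to 1.74 in the Cy3 orientation. Its swap component of -0.80 ± 0.246 was the lowest among the members (adjusted p = 0.0925). Tnfrsf12a passed at -0.91 ± 0.255 (adjusted p = 0.0453), with array values of -3.43, -0.06, -0.37 and -0.91 in the Cy5 orientation and 0.07, -0.36, -1.12 and -1.09 in the Cy3 orientation. Mouse 1 alone had a value far below the others, on its Cy5 array. The Tnfrsf12a call was lost without any 1 of the mice (adjusted p of 0.0937, 0.0509, 0.103 and 0.121 without mice 1 to 4). The difference between the ligand and the receptor was not tested.

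Receptors of the tumour necrosis factor family had 6 of 13 spots past the threshold, 2 above 0 and 4 below, beside 30.4% of all spots. As deposited, 8 of 13 passed, 1 above 0 and 7 below. Tnfrsf11a, the receptor for the bone and immune ligand Tnfsf11, gave array values of 1.02, 0.95, 0.69 and 0.67 with the mutant in Cy5 at spot 9994. With the mutant in Cy3 it gave 0.45, 0.73, 1.04 and 0.07. All 8 values lay above 0, with a mean ratio of 0.70 ± 0.149 (adjusted p = 0.0213), and the call was lost without mouse 1, 2 or 3. Spot 6194 of Tnfrsf11a had the opposite sign, at -0.34 ± 0.148 (adjusted p = 0.133). Its values were -0.12 to 0.72 in the Cy5 orientation and -1.35 to -0.31 in the Cy3 orientation, which did not overlap.

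Tnfrsf21, a death receptor expressed by neurons and oligodendrocyte precursors, gave 0.07, -0.21, 0.16 and 0.78 with the mutant in Cy5 and 1.12, 1.09, 0.85 and 0.29 with the mutant in Cy3. Its mean ratio was 0.52 ± 0.126 (adjusted p = 0.0309). The call was lost with the values as deposited (0.36, adjusted p = 0.0929) and without any 1 of the mice. Tnfrsf25, a costimulatory receptor of T cells, gave 0.40, -0.29, -0.45 and -0.23 in the Cy5 orientation and -1.58, -0.60, -0.67 and -1.98 in the Cy3 orientation, with no overlap. Its mean ratio was -0.67 ± 0.163 (adjusted p = 0.0304), and its call too was lost without any 1 of the mice. Tnfrsf4, another costimulatory receptor of T cells, was below 0 on all 7 arrays with a value. It gave -0.72, -0.72 and -0.54 for mice 1, 2 and 4 in the Cy5 orientation and -0.84, -0.57, -1.03 and -0.04 for mice 1 to 4 in the Cy3 orientation. The mean ratio of Tnfrsf4 was -0.69 ± 0.168 (adjusted p = 0.0313, mouse 3 from 1 array), lost without mouse 1, 2 or 3.

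Tnfrsf13c, the receptor for the B cell survival factor Tnfsf13b, had the lowest mean ratio of all members at spot 12326, -2.51 ± 0.678 (adjusted p = 0.0408). That value rested on few measurements. With the mutant in Cy5 the spot gave -4.42, -3.60, -3.49 and -0.40, and with the mutant in Cy3 mouse 3 alone had a value, 0.23. So 3 of the 4 mice entered with 1 array, 2 of the 5 values matched ratios of small whole numbers, and the call was lost without mouse 1, 2 or 3. Spot 4549 of Tnfrsf13c, with all 8 values, read -0.51 ± 0.163 (adjusted p = 0.0653). Tnfrsf13b, a receptor for the same ligand, read -1.06 ± 0.319 (adjusted p = 0.0543) and Tnfrsf18 -0.76 ± 0.265 (adjusted p = 0.0784). These 3 spots passed with the values as deposited, at adjusted p of 0.0481, 0.0493 and 0.0324. Spot 4549 also passed with runs centred (adjusted p = 0.0452), Tnfrsf13b without mouse 4 (0.0461) and Tnfrsf18 without mouse 1 (0.0309). Tnfrsf19, an orphan receptor of progenitor cells, read 0.39 ± 0.173 and did not pass.

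None of the 5 interferon receptor spots passed the threshold in the mean ratio with limma, and 1 had an unadjusted p under 0.05. On the Cy3 arrays alone 1 of the 5 passed, above 0, beside 34.3% of all spots. The mean ratios of the 5 spots ran from 0.26 to 0.63, and from 0.09 to 0.47 as deposited. Ifnar2, a chain of the type I interferon receptor, was measured by 3 spots at 0.63 ± 0.259 (spot 5233), 0.26 ± 0.265 (spot 18965) and 0.44 ± 0.138 (spot 19234, adjusted p = 0.0604). Spot 19234 lay above 0 on all 8 arrays, at 0.03 to 0.32 with the mutant in Cy5 and 0.45 to 0.94 with the mutant in Cy3, without overlap. Spot 18965 turned to -0.26 when runs of 48 spots were centred, while the other 4 interferon receptor spots stayed above 0. Ifngr1 and Ifngr2, both chains of the receptor for Ifng, read 0.51 ± 0.278 and 0.36 ± 0.197. Without mouse 1, Ifngr1 read 0.85 and passed (adjusted p = 0.037). Of the colony-stimulating factor receptors, Csf2rb read -0.30 ± 0.159 and Csf2rb2 -0.31 ± 0.176, and neither passed. With runs of 48 spots centred, Csf2rb2 read -0.89 and passed (adjusted p = 0.0205). These are close paralogs whose cDNA a spot may not separate.

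Across the 9 genes with several spots, 4 had the same sign in every spot (Cxcl14, Ifnar2, Il6st and Tnfrsf13c). In Cxcl12, Il16, Il1rn, Il4i1 and Tnfrsf11a the signs differed, and in no gene did every spot pass the threshold. As deposited, the spots of Cxcl14 lay at -0.02 and -0.11 and spot 2103 of Il6st at -0.04. With runs of 48 spots centred, the spots of Cxcl14 lay at 0.41 and -0.46. The distance between the highest and lowest mean ratio of a gene ran from 0.09 in Cxcl14 to 2.00 in Tnfrsf13c. The transcript stretch that each spot covers was not known here, and names rest on an inferred offset, so a disagreement between spots was not traced.

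**Figure D4:**
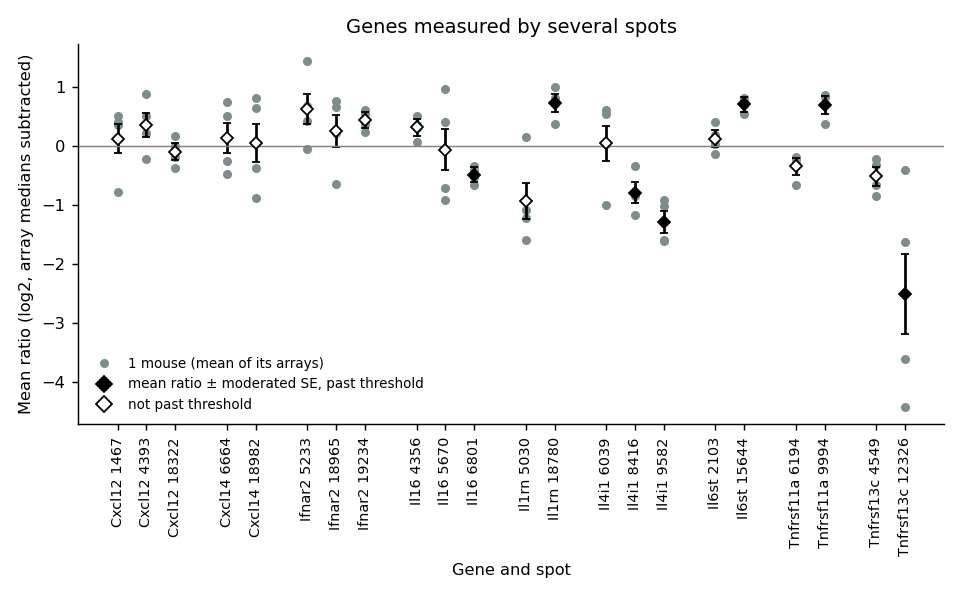
Mean ratio (log2, vertical axis) of each spot of the 9 member genes with several spots. Grey points are the 4 mice, diamonds the mean ± moderated SE, and filled diamonds passed the threshold. The spots of Il1rn lie at -0.93 and 0.73 and those of Tnfrsf11a at -0.34 and 0.70, on opposite sides of 0.

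Promoter windows of 250 bases were found in RefSeq for 45 of the 55 member genes, with the first listed start taken for each gene. The NF-kB consensus, searched by name on both strands, was present in 4 of 45 (8.89%: Ccl1, Ccl9, Cxcl1 and Ifngr2) and in 7.01% of 27025 genes. TTCNNNGAA, searched on both strands, was present in 8 of 45 (17.8%) and in 7.18% of all genes. Those 8 were Ccl17, Ccr6, Csf2rb2, Cxcl14, Ifnar2, Tnfrsf18, Tnfrsf1a and Tnfrsf1b. The interferon response core GAAANNGAAA was present on either strand in Cxcl14 and Tnfrsf1b (4.44%, against 3.04% of all genes). TATAAA on the sense strand was present in 5 of 45 (11.1%, against 8.12%), namely Ccl8, Ccl9, Ccl12, Il1b and Tnf, all of them ligands. These shares describe letters in a window and were not tested, and a match is not a binding site.

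Downstream genes of the receptors, outside the rule for members, were 55 of 74 listed Jak, Stat, Socs, NF-kB, Traf and Irak genes with their regulators. Of their 81 spots tested, 16 passed in the mean ratio (19.8%), 8 above 0 and 8 below, and 15 passed as deposited, 4 above 0 and 11 below. Over all spots 30.4% passed in the mean ratio and 29.6% as deposited. The median of the signalling list was -0.17. Adam10, a sheddase of membrane-held cytokines, read 0.94 ± 0.135, Pias3, an inhibitor of Stat3, -1.71 ± 0.177 and Rela, a subunit of NF-kB, -1.19 ± 0.134, each from 1 spot. Of Tyk2, a Jak kinase of interferon receptors, spot 15500 passed at 1.14 ± 0.181, while spots 5281 and 6331 read -0.50 ± 0.254 and -0.62 ± 0.469 and did not pass. The adaptor Traf4 passed at spot 2882 (0.99 ± 0.132), and its spots 5547 and 6077 read -0.39 ± 0.184 and -0.95 ± 0.301 without passing. Ptpn6, a phosphatase that dampens cytokine receptors, passed at spot 3720 (-1.18 ± 0.238), and its spots 2881, 5566 and 13831 read 0.27, -0.46 and -0.05 without passing. In the swap component 2 of 66 spots passed, beside 7.84% of all spots. They were Traf4 spot 2882 and Tyk2 spot 15500, both at -0.58. Traf4 spot 5547 read 0.16 in the swap component and Tyk2 spots 5281 and 6331 read 0.79 and -0.12, none past the threshold.

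Other cytokine ligands and receptors, which the symbol rule does not take, had 26 of 68 listed genes measured. Of 30 spots tested, 11 passed in the mean ratio (36.7%), 5 above 0 and 6 below, and 8 as deposited, 1 above 0 and 7 below. The shares over all spots were 30.4% in the mean ratio and 29.6% as deposited. Cx3cl1, the neuronal ligand of a microglial receptor, read 0.79 ± 0.126, Cntfr, a receptor that signals through Il6st, 0.78 ± 0.182 and Ackr1, a chemokine scavenger, 0.74 ± 0.150. Tgfb3 read -0.96 ± 0.277 and the hormone Prl -0.90 ± 0.261. Cmtm3 passed at spot 4661 (-0.94 ± 0.186), while its spot 4894 read 0.33 ± 0.137 and did not pass. In the swap component 3 of 27 passed, beside 7.84% of all spots. They were Cx3cl1 at -0.74, Fas at -0.79 and Tslp at 1.09.

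Markers of cells that make or receive cytokines were counted in the mean ratio, beside the 30.4% of all spots that passed. Astrocyte markers passed in 8 of 14 spots and neuronal markers in 4 of 8, all above 0. Microglial markers passed in 4 of 8, with Gpr34 at 0.99 and C1qb at 0.94 above 0 and Aif1 at -0.96 and Trem2 at -0.77 below. Markers of T, B and natural killer cells passed in 1 of 7 spots, below 0, with a median of -0.64. Markers of granulocytes and blood monocytes passed in 4 of 14, with 3 below 0, and those of endothelium and pericytes in 3 of 8, with 2 above 0. In the swap component neuronal markers passed in 3 of 7 spots and astrocyte markers in 2 of 13, all below 0, beside 7.84% of all spots. Markers of granulocytes and blood monocytes passed there in 1 of 11, above 0, and the remaining marker lists had no call. The part of these lists in the members' values was not tested.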

How the data were processed

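Total RNA of brain was reverse transcribed and labelled indirectly with Cy3 or Cy5, per the labels' protocols. The values were used as deposited, as log2 ratios of the channels, a scale inferred from the deposited values. The sources used here do not give the scanner, nor how background and normalisation were handled. Each of the 8 columns was taken to carry 1 additive constant, inferred from its largest value. That value was read as the code for an empty denominator (log2 of 100000 plus the constant). Values at that maximum, 1 to 30 per array, were treated as missing. There were 0 columns without a sample.

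All 12771 annotated spots were found in RefSeq (GRCm38.p6) by gene identifier. Names were read with an offset of 11 rows, for annotation numbers up to 20000, which named 12131 spots. With this offset the first and second spot of a gene correlated at Spearman's rho of 0.255 across 2543 genes, against -0.01 across 2537 genes without it. The offset was chosen on these values.

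Array medians were subtracted, and limma 3.58.1 (R 4.3.3; lmFit, eBayes, intercept only) tested 4 mouse values. The mean ratio needed a value in every mouse, the swap component values on all 8 arrays, which left 20595 and 18797 spots. The limma fit was tested on simulated data. Weak values were those within 0.001 of the log2 ratio of whole numbers up to 10.

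Members and gene lists were chosen with earlier results of these data known. The rule for named spots took members past the threshold with 1 sign on all 8 arrays (at most 15 per direction), or likewise in the turned swap component, all spots of genes with several spots, listed ligand and receptor pairs, and the 3 highest and 3 lowest mean ratios. The remaining members were named afterwards, with their values seen, so that each is accounted for. Of other lists at most 3 genes per direction were named, and microglial markers and swap calls were named after their values were seen. Alternatives were the deposited constants, each mouse left out, values on all 8 arrays, weak values left out, centred runs of 48 spots, each orientation alone, spots averaged per gene and names without the offset.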

Additional observations from a re-analysis of the deposited data

Results flagged for a closer look

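Among 128 sets of 4 mouse values (67 mean ratios and 61 swap components of member spots), 8 held 1 mouse far from the other 3 by Dixon's test, which marks about 1 in 20 sets by chance. In the mean ratio these were Cxcl12 (spot 1467), with mouse 3 at -0.77 and the others from 0.36 to 0.51, and Il4, with mouse 4 at -1.16 and the others from -0.12 to -0.08. In the swap component mouse 2 stood apart in 3 spots. It was at 0.72 in Ccr7 (others -0.06 to 0.06), at 2.49 in Il17rd (others -0.11 to 0.26) and at -1.07 in Il6st spot 15644 (others -0.57 to -0.51). Mouse 4 stood apart in Ccl12, at -0.91 (others 0.32 to 0.35), and in Tnfsf13, at 1.12 (others -0.53 to -0.45). Mouse 1 stood apart in Tnfrsf12a, at -1.75 (others 0.09 to 0.38).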

How the results depend on the processing

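The 18 member spots called in the mean ratio became 0 in the Cy5 orientation alone (16 with unadjusted p under 0.05) and 4 to 10 with 1 mouse left out. Under the other alternatives the count lay between 13 (spots averaged per gene) and 22 (as deposited). Beside these stand 28.8% of all genes and 29.6% of all spots. Without the naming offset, which puts the member names on other spots, the count was 20, with 12 above 0. The number of those spots tested is not given here, so that count cannot be set beside these shares. Of the 18 called spots, 17 passed as deposited (Tnfrsf21 did not), 10 with runs of 48 spots centred, 12 of 17 tested on the Cy3 arrays alone, and 7, 4, 4 and 8 without mice 1 to 4. None of them changed sign. Il34 and Il4i1 spot 9582 lost their call on the Cy5 arrays alone and under no other of these alternatives, Ccr6 with centred runs and under no other that was run for it (it lacked values for the Cy5 arrays alone and for all 8 arrays).

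In the swap component the single call (Il6st) became 0 as deposited, 0 with centred runs, 0 to 0 with 1 mouse left out (7 to 17 at an unadjusted p under 0.05). In these settings limma called 0 spots on the whole array, so the loss is not particular to Il6st. The count became 2 with weak values left out (Il6st, and Il4i1 spot 9582 at 0.58). In that setting 16.9% of all spots passed, against 7.84% with weak values kept. Without the naming offset, which again takes other spots, the count was 7. With spots averaged per gene it was 1, Ccl9, beside 8.77% of all genes. The causes were not tested. The signalling list had 16 calls in 81 spots with medians subtracted and 15 as deposited, beside 30.4% and 29.6% of all spots. Precision is limited by 4 mice, 1 pool and the absence of intensities.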
